A study of Mus musculus with 10 samples.

Results

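The transcription factors of granulopoiesis, the making of neutrophils, were followed as a set of 10 in neutrophils taken from tumours grafted onto mice. They are the C/EBP proteins Cebpa, Cebpb, Cebpd and Cebpe, the ETS protein Spi1 (PU.1), the zinc finger repressor Gfi1, the core-binding factor Runx1, the Krüppel-like factors Klf2 and Klf6, and the basic helix-loop-helix repressor Bhlhe40. The genes were chosen by symbol for their known roles, with earlier results of these data known. Their Ensembl identifiers gave 10 genes of the 55385 mouse genes counted. Each of the 10 was among the 29648 genes with enough reads for testing, and 8 averaged 5 CPM or more (CPM are counts scaled to a library of common size). Cebpa and Gfi1 were the 2 below that level.

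Squamous cell carcinoma cells, either a parental line low in Sox2 (control) or cells high in Sox2 (Sox2Hi), were grafted onto CatchupIVM-red hosts. The count table labels all libraries C57, those of the control graft GFP and those of the other graft Sox2. In this strain the red Tomato reporter is tied to the Ly6g locus, a gene of mature mouse neutrophils, and Tomato+ neutrophils were isolated for bulk RNA sequencing. The naive groups held 3 libraries for each graft and the treated groups 2 for each. Treated hosts received an antibody to PDL1 with a CD40 agonist after tumours had formed, and naive hosts received none. The labels give no age and do not say that replicates came from separate animals, so p-values measure only the spread between these libraries.

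Neutrophils arise from a common myeloid progenitor through promyelocyte and myelocyte stages, and each stage leaves a recognisable set of granule genes. PU.1, RUNX1 and C/EBP alpha open the myeloid programme, GFI1 represses monocyte genes in early granulocyte precursors, and C/EBP epsilon switches on the genes of the late granules. C/EBP beta takes over when infection or inflammation speeds up neutrophil output, while KLF2, KLF6 and BHLHE40 are known mainly as regulators of quiescence and activation in mature myeloid cells.

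Promoters of some members called in the tests below are shown first. For Cebpd, Cebpe, Spi1 and Bhlhe40, which were also called, the source held none. RefSeq (GRCm38.p6) gave a promoter for 6 of the 10 members, Cebpa, Cebpb, Gfi1, Klf2, Klf6 and Runx1, with 8 promoters in all since Gfi1 and Runx1 each have 2. The 250 bases before the start site are printed 5′ to 3′ on the strand of the gene, in lower case, with a motif match in capitals. Those of Klf6 (chr13:5861239-5861488, plus strand), Runx1 (the upstream promoter, chr16:92826075-92826324, minus strand) and Klf2 (chr8:72318812-72319061, plus strand) belong to members whose treatment response differed between the 2 grafts in the main test. That of Cebpb (chr2:167688665-167688914, plus strand) belongs to a member called higher in both by that test. These calls depended on the fit, as given below.
Klf6: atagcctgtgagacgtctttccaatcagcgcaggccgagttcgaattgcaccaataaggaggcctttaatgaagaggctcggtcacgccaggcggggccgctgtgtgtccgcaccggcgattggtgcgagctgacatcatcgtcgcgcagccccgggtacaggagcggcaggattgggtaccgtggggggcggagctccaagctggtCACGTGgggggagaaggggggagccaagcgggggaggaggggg
Runx1: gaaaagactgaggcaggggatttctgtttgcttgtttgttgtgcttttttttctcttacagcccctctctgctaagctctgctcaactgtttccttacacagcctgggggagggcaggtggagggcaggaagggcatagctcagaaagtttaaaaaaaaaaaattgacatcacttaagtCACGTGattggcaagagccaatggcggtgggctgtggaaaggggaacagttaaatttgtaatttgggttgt
Klf2: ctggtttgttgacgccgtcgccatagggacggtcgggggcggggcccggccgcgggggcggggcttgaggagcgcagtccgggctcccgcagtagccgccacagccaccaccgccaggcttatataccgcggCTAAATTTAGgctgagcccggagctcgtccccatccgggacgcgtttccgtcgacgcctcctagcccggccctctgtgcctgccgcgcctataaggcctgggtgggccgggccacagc
Cebpb: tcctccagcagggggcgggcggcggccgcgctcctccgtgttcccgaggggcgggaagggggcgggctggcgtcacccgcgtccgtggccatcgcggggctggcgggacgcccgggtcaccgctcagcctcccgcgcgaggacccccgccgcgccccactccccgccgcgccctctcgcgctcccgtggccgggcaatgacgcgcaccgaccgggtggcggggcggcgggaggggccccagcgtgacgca

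The share of G and C was 81.6% for Cebpb, 71.2% for Klf2 and 64.8% for Klf6, against 45.6% for the upstream Runx1 promoter and a median of 52.4% over the 32851 mouse promoters of the table. The capitals in Klf6 and Runx1 mark CACGTG, the E-box that BHLHE40 and other helix-loop-helix proteins bind, at 43 and 71 bases before the RefSeq start. In the GENCODE annotation Runx1 reaches to chr16:92826149, so its match lies inside the annotated gene. Of all promoters, 6.02% hold this hexamer in the same window. The capitals in Klf2 mark a match to CTANNNNTAG, a MEF2 motif that was added to the search after the sequence had been seen. It lies 118 bases before the start, and 3.20% of promoters hold it. The other motifs searched, on both strands, were TTGCNNAA for C/EBP (9.56% of promoters), GAGGAAG for PU.1 (10.6%), TGTGGT for RUNX (14.05%), CACACCC for KLF (6.93%), TTCNNNGAA for STAT (7.02%), GAAANNGAAA for IRF (2.98%), GGGANTTTCC for NF-kB (0.356%) and TGACGTCA for CREB (1.55%). Among the 8 promoters these letters occurred once, as a C/EBP match in 1 Gfi1 promoter (TTGCTGAA, 143 bases before the RefSeq start). It also lies inside the gene in the GENCODE annotation, where Gfi1 reaches to chr5:107726036. A match describes the letters of the window and does not show binding.

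Background and marker levels differed between groups. Libraries held 13815734 to 22986193 gene counts. Reads over 1464 olfactory and vomeronasal receptor genes, taken as silent here, gave an expected background that took 5.02% to 8.37% of a control naive library and 1.58% to 1.74% of a control treated one. It took 3.63% to 3.92% of a Sox2Hi naive library and 4.04% to 4.96% of a Sox2Hi treated one. The summed level of 20 genes of mature neutrophils ran from 19688 to 31199 CPM over control naive and 65385 to 70677 CPM over control treated libraries. Over Sox2Hi naive libraries it ran from 20091 to 30327 CPM, and over Sox2Hi treated ones from 36298 to 36488 CPM. It thus moved in the same direction as most members in control tumours. Markers of other cells were also read: the 12 macrophage and monocyte genes summed to 903 to 1376, 1841 to 2604, 1336 to 1869 and 1188 to 2238 CPM in the same order, and the 12 keratinocyte genes to 2178 to 4424, 1318 to 2286, 3640 to 4858 and 2179 to 3060. The 12 fibroblast and endothelial genes summed to 290 to 728, 111 to 140, 466 to 638 and 133 to 334 CPM, and the 12 T and NK cell genes to 70.3 to 121, 171 to 569, 53.9 to 234 and 204 to 331 CPM. The 8 B and plasma cell genes summed to 162 to 345, 460 to 1155, 438 to 3885 and 390 to 460 CPM, with 3885 in Sox2Hi naive replicate 2 and 669 or less in the other Sox2Hi naive libraries. The 6 erythroid genes summed to 577 to 1494, 52.6 to 320, 272 to 570 and 24.7 to 62.2 CPM, lower in each treated group than in the naive group of its graft. The 10 mast cell and eosinophil genes were likewise lower, at 82.0 to 260, 25.0 to 51.8, 128 to 144 and 42.4 to 72.3 CPM. The 8 dendritic cell genes were at 32.2 to 57.6, 23.4 to 37.5, 29.0 to 74.2 and 22.2 to 31.3 CPM, with ranges that overlapped. No marker of any list was at 0 in all libraries. In bulk RNA, fewer cells of a type and less RNA per cell cannot be told apart, and the part that cell content played in the changes below was not tested.

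Because background and marker levels differed, libraries were scaled by factors from the 11274 genes averaging 5 CPM or more (called expressed genes here), and changes were also computed under 4 other scalings. These moved the median change of the expressed genes on treatment of control tumours from -0.05 on the log2 scale to 0.36 with factors from all genes, -0.18 when expressed genes alone were fitted, 0.55 with RLE factors and -0.69 with library totals. For the difference in response between grafts the same medians were -0.17, -0.79, 0.02, -0.998 and 0.19. Every fold change below can therefore shift with the scaling, and the distance from the median of expressed genes is given where it matters.

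In these libraries the members covered a wide range of levels. Levels were divided by the kb of all annotated exons of a gene merged, which gives a rough comparison between genes. The median over 10 libraries was then 253 CPM for Klf6, 120 for Bhlhe40, 60.3 for Cebpb, 30.8 for Klf2, 25.7 for Spi1, 11.3 for Cebpe, 9.35 for Runx1, 5.15 for Cebpd, 1.47 for Cebpa and 0.254 for Gfi1. The merged length can exceed that of the transcripts present, so the order is approximate. Klf6 stood above Bhlhe40 with no overlap between their ranges over libraries, and the same held for Runx1 above Cebpd, Cebpd above Cebpa and Cebpa above Gfi1. The other neighbours overlapped in range. Klf2 was above Spi1 in 9 of 10 libraries and Cebpe above Runx1 in 7 of 10, so the order of these pairs was not fixed.

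**Figure D1:**
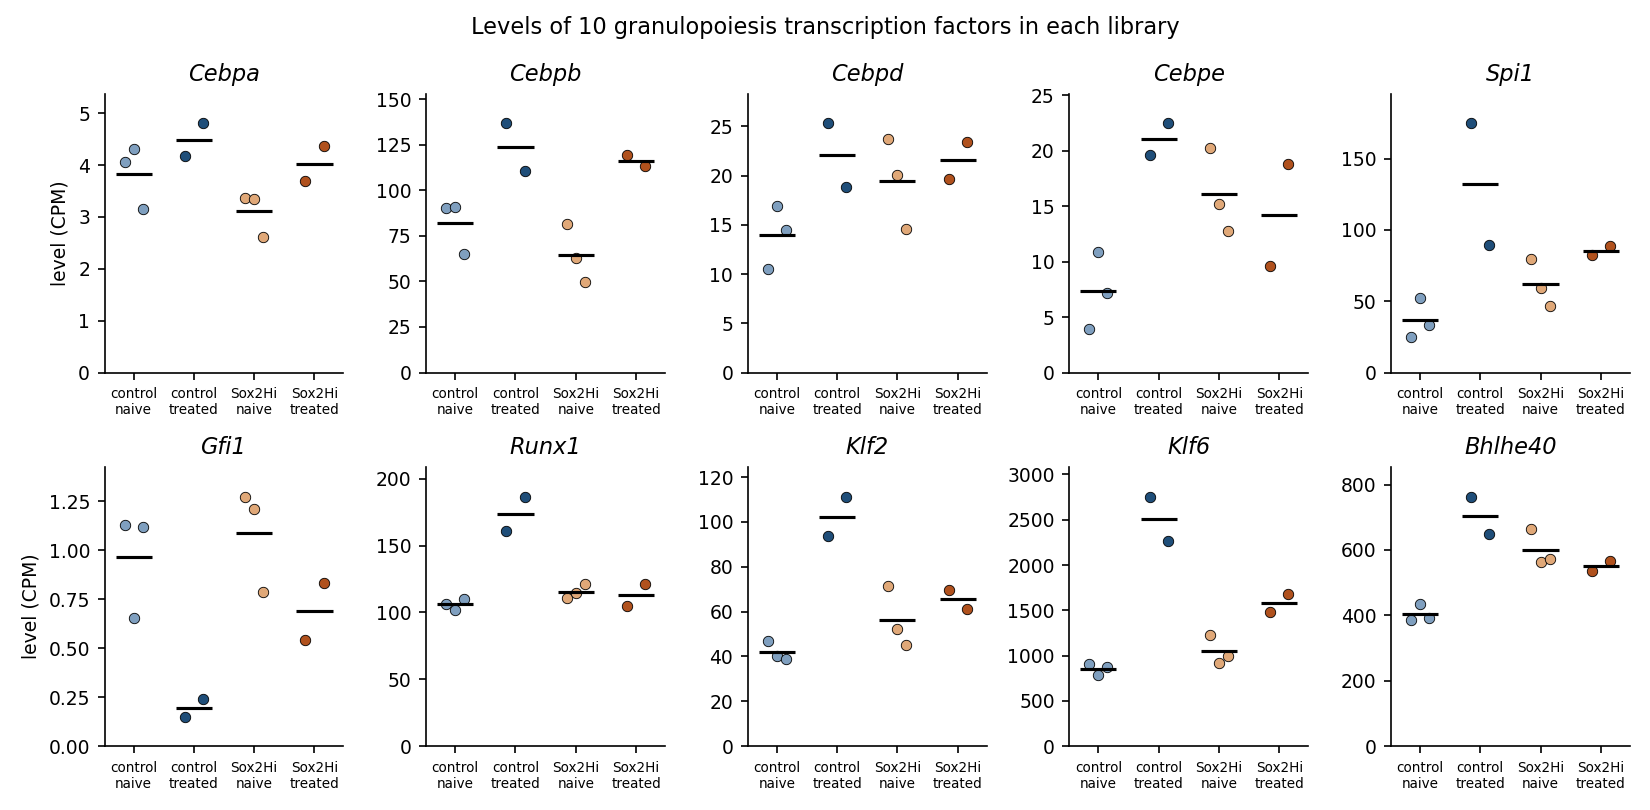
Level of each member in every library, in CPM on an axis from 0, by group, with points for libraries and bars for group means (n = 3, 2, 3 and 2). For Klf6, Klf2 and Runx1 both control treated libraries lie above every other library, while for Gfi1 they lie below every other library.

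Treatment of control tumours came with higher levels of most members. Of the 10, 8 rose and 1 was lower (edgeR quasi-likelihood test, Benjamini-Hochberg adjusted p below 0.05), against 12.5% of all genes tested that rose and 36.1% that fell. Each of the 8 members that rose was an expressed gene, a class in which 28.0% of genes rose. When expressed genes alone were fitted, 6 of the 8 members tested rose, all but Cebpb and Cebpd, against 24.1% of genes. With factors from all genes 9 of 10 rose, Cebpa among them, against 18.7% of all genes and 40.0% of expressed genes. With library totals Cebpe, Spi1, Klf2 and Klf6 were the members that rose, against 1507 of the 29648 genes tested. With RLE factors 6488 of these genes rose. Since the members were chosen with earlier results of these data known, such shares are given as a description. The 10702 genes that fell were 4482 with factors from all genes, 2394 with RLE factors, 20107 with library totals, and 4892 without control treated replicate 2. The median log2 fold change was 0.76 for the members, -0.72 over all genes tested and -0.05 over expressed genes.

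Spi1 (ENSMUSG00000002111, chr2:91082390-91115756) encodes PU.1, the ETS factor that myeloid cells need from the progenitor onward. It was measured at 25.1, 52.1 and 33.3 CPM in control naive and at 175 and 89.6 CPM in control treated libraries. The Sox2Hi libraries had 79.3, 59.3 and 47.0 CPM in naive and 82.4 and 88.6 CPM in treated libraries. The control groups did not overlap, and the treated library with 175 CPM was the highest of the 10. Spi1 rose in control tumours by 1.84 on the log2 scale (SE 0.33, edgeR adjusted p = 0.00154), and by 1.25 without that library. In Sox2Hi tumours the difference was 0.47 (SE 0.32, adjusted p = 0.393) with 79.3 CPM in the highest naive and 82.4 CPM in the lowest treated library. The rise in control tumours passed the threshold under each of the 21 alternatives, from 1.20 to 2.46.

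Runx1 (ENSMUSG00000022952, chr16:92601466-92826149) encodes the partner of CBF beta that myeloid progenitors need and that has also been tied to neutrophil maturation. Its levels in control tumours were 106, 101 and 110 CPM when naive and 161 and 186 CPM when treated. In the Sox2Hi graft they were 110, 114 and 121 CPM when naive and 105 and 121 CPM when treated. Only the control treated libraries stood apart, and the other 8 lay within 101 to 121 CPM. The rise in control tumours was 0.71 on the log2 scale (SE 0.15, edgeR adjusted p = 0.00342), while the Sox2Hi difference was -0.03 (SE 0.15, adjusted p = 0.926). With library totals the rise was 0.07 and did not pass (adjusted p = 0.69), the 1 alternative of 21 in which it did not.

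Cebpa (ENSMUSG00000034957, chr7:35119293-35121928) encodes the factor that commits progenitors to the granulocyte lineage and is usually turned down as the cells mature. It was low in all groups, with 53 to 80 reads a library. Control tumours had means of 3.84 ± 0.61 CPM when naive (SD, n = 3) and 4.49 ± 0.45 CPM when treated (SD, n = 2), and Sox2Hi tumours 3.11 ± 0.44 CPM (SD, n = 3) and 4.02 ± 0.48 CPM (SD, n = 2). Expected background was 22.0% of its reads. Neither treatment contrast passed the threshold (0.23, edgeR adjusted p = 0.405, and 0.37, adjusted p = 0.345). The first passed with factors from all genes (0.67) and RLE factors (0.85), and was negative with library totals (-0.40) and without control naive replicate 3 (-0.03).

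Gfi1 (ENSMUSG00000029275, chr5:107716657-107726036) represses monocyte genes in early granulocyte precursors. It had 20, 10 and 22 reads in naive and 2 and 4 in treated control libraries, then 26, 22 and 16 in naive and 9 and 13 in treated Sox2Hi libraries. Both control treated libraries were the lowest of the 10. The log2 fold change in control tumours was -2.25 (SE 0.53, edgeR adjusted p = 0.00615). Over all libraries the expected background was 120% of its reads. In control naive libraries it was 113%, 282% and 95.0% of the reads, and in control treated libraries 401% and 222%. With the Sox2Hi graft it was 67.2%, 64.9% and 95.2% of the reads when naive, and 215% and 135% when treated. The reads thus exceeded the expected background in the 3 Sox2Hi naive libraries and in control naive replicate 3, and in no treated library. With background subtracted, Gfi1 had too few reads to be tested, so whether its level differed above the background was not tested.

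Cebpe (ENSMUSG00000052435, chr14:54710360-54712174), the factor that terminal granulocyte differentiation and the late granules depend on, was at 3.89, 10.8 and 7.21 CPM in control naive and 19.6 and 22.5 CPM in control treated libraries. Sox2Hi tumours gave 20.2, 15.2 and 12.8 CPM in naive and 9.61 and 18.8 CPM in treated libraries. The control groups did not overlap, whereas in Sox2Hi tumours 1 treated library lay below all 3 naive ones. Cebpe rose in control tumours by 1.53 on the log2 scale (SE 0.37, edgeR adjusted p = 0.00685), which passed under all 21 alternatives, from 0.89 to 2.22. In Sox2Hi tumours the difference was -0.18 (SE 0.37, adjusted p = 0.787).

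Cebpb (ENSMUSG00000056501, chr2:167688915-167690418), the C/EBP of emergency granulopoiesis, was at 90.5, 90.7 and 65.2 CPM in control naive and 137 and 110 CPM in control treated libraries. In Sox2Hi tumours it was at 81.6, 62.6 and 49.8 CPM in naive and 119 and 113 CPM in treated libraries. In both grafts each treated library was above each naive one. Cebpb rose by 0.59 in control (SE 0.22, edgeR adjusted p = 0.0425) and by 0.85 in Sox2Hi tumours (SE 0.22, adjusted p = 0.0454), and it was the 1 member to rise in Sox2Hi tumours. Both calls were close to the threshold. The control one was lost in each of the 10 fits without 1 library (0.30 to 0.75, adjusted p from 0.052 to 0.25), was 0.36 with background subtracted, and turned to -0.05 with library totals (adjusted p = 0.84). The Sox2Hi one was lost without control naive replicate 1, Sox2Hi naive replicate 2 or 3, or either Sox2Hi treated library (0.76 to 0.88), and with factors from all genes (0.65), RLE factors (0.62) and library totals (0.58). It was also lost with background subtracted (0.90, adjusted p = 0.050).

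Cebpd (ENSMUSG00000071637, chr16:15887286-15891031), an acute-phase C/EBP that cytokines induce, was at 10.5, 16.9 and 14.5 CPM in control naive and 25.3 and 18.9 CPM in control treated libraries. Sox2Hi tumours gave 23.8, 20.1 and 14.6 CPM in naive and 19.7 and 23.4 CPM in treated libraries. The control groups did not overlap and the Sox2Hi groups did. The rise in control tumours was 0.66 (SE 0.25, edgeR adjusted p = 0.0463), and it was lost in 9 of the 10 fits without 1 library, all but the one without control naive replicate 2 (0.37 to 0.87). Of the 21 alternatives 5 called Cebpd. The rise was 0.01 with library totals (adjusted p = 0.96) and 0.53 with expressed genes alone (adjusted p = 0.090). In Sox2Hi tumours the difference was 0.15 (SE 0.25, adjusted p = 0.745).

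Klf6 (ENSMUSG00000000078, chr13:5861482-5870394), an activator of inflammatory genes in macrophages that has been tied to neutrophil maturation, was the member with the smallest p. It was at 903, 785 and 871 CPM in control naive and 2752 and 2265 CPM in control treated libraries. In Sox2Hi tumours it was at 1232, 922 and 991 CPM in naive and 1479 and 1677 CPM in treated libraries. Treated libraries were above naive ones in both grafts, and the control treated pair above all others. Klf6 rose in control tumours by 1.56 on the log2 scale (SE 0.17, edgeR adjusted p = 0.000116), and by 0.91 to 2.15 under the 21 alternatives, each past the threshold. In Sox2Hi tumours the difference was 0.59 (SE 0.18, adjusted p = 0.0716). It passed there in 7 of 21 alternatives, among them the fit on expressed genes alone (0.66, adjusted p = 0.026) and DESeq2 (0.56, adjusted p = 0.017).

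Klf2 (ENSMUSG00000055148, chr8:72319033-72321656), a factor of quiescence that restrains inflammatory genes in myeloid and endothelial cells, was at 46.8, 40.2 and 38.7 CPM in control naive and 93.6 and 111 CPM in control treated libraries. The Sox2Hi libraries had 71.4, 52.4 and 45.0 CPM in naive and 69.7 and 61.3 CPM in treated libraries. The control treated pair lay above the other 8 libraries, and the Sox2Hi groups overlapped. The rise in control tumours was 1.29 (SE 0.20, edgeR adjusted p = 0.000771), past the threshold under all 21 alternatives, and the Sox2Hi difference was 0.22 (SE 0.20, adjusted p = 0.519).

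Bhlhe40 (ENSMUSG00000030103, chr6:108660629-108666925), a repressor that inflammatory signals induce, was at 386, 433 and 392 CPM in control naive and 762 and 648 CPM in control treated libraries. In Sox2Hi tumours it was at 664, 564 and 573 CPM in naive and 536 and 566 CPM in treated libraries. The control naive libraries were the 3 lowest of the 10, and the Sox2Hi naive libraries lay between the 2 control groups, apart from the one with 664 CPM, which was above the lower control treated library. Bhlhe40 rose in control tumours by 0.80 on the log2 scale (SE 0.15, edgeR adjusted p = 0.00225). In Sox2Hi tumours the difference was -0.12 (SE 0.16, adjusted p = 0.646). With library totals the control rise was 0.16 and did not pass (adjusted p = 0.34), which was the 1 alternative of 21 to do so.

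Annotated genes on the opposite strand overlap 6 of these loci: Gm45091 at Cebpa, Tmem189 at Cebpb, Spidr at Cebpd, A430072P03Rik at Gfi1, Gm26626 at Runx1 and 0610040F04Rik at Bhlhe40. Whether the counting used strand is not given in the sources used here, so reads of such pairs may not be told apart. Cebpe, Spi1, Klf2 and Klf6 have no such neighbour.

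**Figure D2:**
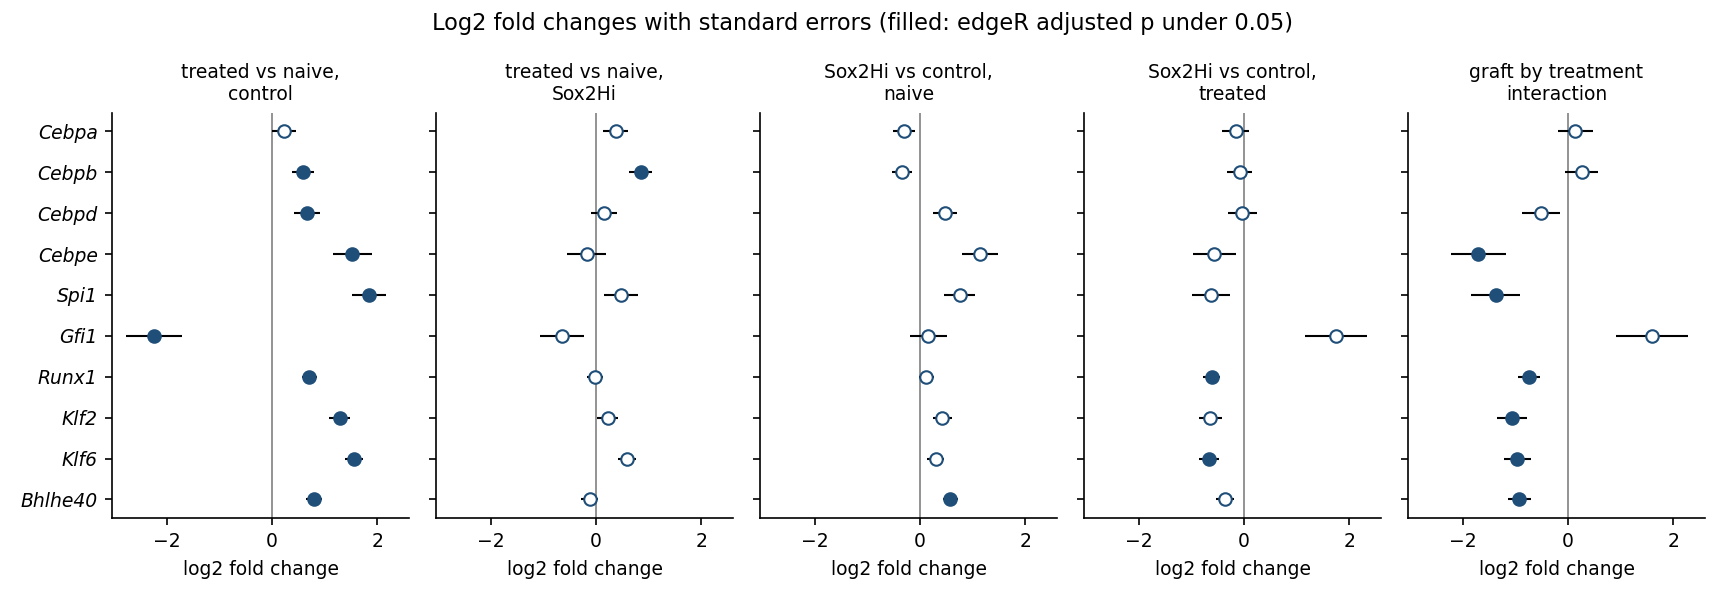
Log2 fold change of each member under the 5 contrasts, with bars of 1 standard error on each side and filled points for an edgeR adjusted p below 0.05. The filled points are 9 of 10 for treatment in control tumours, 1 for treatment in Sox2Hi tumours, 1 and 2 for the grafts in naive and treated tumours, and 6 for the interaction.

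The changes in control tumours were also set against the median of expressed genes. A scaling shifts all genes by nearly the same amount, so this distance is nearly the same under any scaling by construction and is given as a description only. Spi1 lay 1.89 above that median on the log2 scale, Klf6 1.61, Cebpe 1.58, Klf2 1.34 and Bhlhe40 0.85. Among expressed genes, 96.6% had a lower change than Spi1, 94.3% than Klf6, 94.1% than Cebpe and 91.0% than Klf2. Bhlhe40 (80.8%), Runx1 (78.2%), Cebpd (76.7%) and Cebpb (74.4%) were nearer to the middle of the expressed genes. Spi1, Klf6, Cebpe and Klf2 thus lay near the upper end of the expressed genes, and the others rose with a large share of them.

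In Sox2Hi tumours treatment raised 1 member, Cebpb, against 3.36% of all genes tested that rose. It lowered none by edgeR, DESeq2 or limma-voom, against 1.66% of genes that fell by edgeR, and none at an unadjusted p below 0.05. The 492 genes that fell were 13 to 291 without control naive replicate 1 or any 1 of the 5 Sox2Hi libraries, with 13 reached without Sox2Hi treated replicate 2, and 945 without control naive replicate 2. With factors from all genes 530 genes rose and 539 fell, with RLE factors 471 and 540, and with library totals 482 and 1308. The median change of the members was 0.18, against 0.27 over all genes and 0.03 over expressed genes. The share of members that rose was not read as a result about them, since 1 of 10 is the smallest share above 0. The 996 genes that rose were 167 without Sox2Hi treated replicate 2, 321 without Sox2Hi naive replicate 3 and 587 without Sox2Hi treated replicate 1, and 1643 and 1793 without control naive replicate 2 and 3. Relative to expressed genes Cebpb stood 0.82 above the median, with 92.1% of expressed genes lower, and Klf6 0.57 above, with 83.5% lower.

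The test of the difference in response between grafts, the graft by treatment interaction, was lower in Sox2Hi for 6 of 10 members, against 4.42% of all genes tested and 10.8% of expressed genes. The 1309 genes behind the share of all genes were 236 to 694 in fits without 1 library, apart from those without control naive replicate 2 (1272) and control treated replicate 2 (956). It was higher for none by edgeR, DESeq2 or limma-voom, against 26.8% of all genes tested by edgeR, and for 1, Gfi1, at an unadjusted p below 0.05. The 7953 genes behind that share were 3328 with factors from all genes, 2193 with RLE factors, 12152 with library totals, 3786 without Sox2Hi treated replicate 1 and 4710 without control treated replicate 2. The members' median was -0.83, against 0.85 over all genes tested and -0.17 over expressed genes. The members were Cebpe (-1.71, SE 0.53, edgeR adjusted p = 0.0302), Spi1 (-1.38, SE 0.47, adjusted p = 0.0419), Klf2 (-1.07, SE 0.29, adjusted p = 0.019), Klf6 (-0.97, SE 0.25, adjusted p = 0.017), Bhlhe40 (-0.93, SE 0.22, adjusted p = 0.0121) and Runx1 (-0.74, SE 0.21, adjusted p = 0.024). The response of these 6 was thus smaller in Sox2Hi than in control tumours. For Cebpb the interaction was 0.26 (SE 0.31, adjusted p = 0.529), for Cebpa 0.14 (SE 0.33, adjusted p = 0.755) and for Cebpd -0.51 (SE 0.36, adjusted p = 0.27).

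These calls depended on the fit. When expressed genes alone were fitted, a fit whose scaling also used another reference library (control naive replicate 2 in place of replicate 1), 2.84% of genes were lower and Bhlhe40 was the 1 member called (-0.73, adjusted p = 0.030), with Klf2 at -0.87 (adjusted p = 0.050) and Klf6 at -0.77 (adjusted p = 0.056). With background subtracted edgeR called none, and the adjusted p-values ran from 0.10 for Bhlhe40 (-0.65) to 0.23 for Spi1 (-1.12). On the counts as deposited DESeq2 and limma-voom each called the same number as the main test, 6. They called 1518 and 1843 of the 29648 genes lower, against 1309 by the main test. With factors from all genes 7 members were called lower, Cebpd (-1.13) among them, against 16.3% of all genes and 39.2% of expressed genes, the class all 7 belong to. With library totals Cebpe (-1.37, adjusted p = 0.042), Klf6 (-0.61, adjusted p = 0.047) and Bhlhe40 (-0.57, adjusted p = 0.048) were called lower and Gfi1 higher (1.93, adjusted p = 0.033). The calls of Spi1 (-1.004, edgeR adjusted p = 0.090), Klf2 (-0.70, adjusted p = 0.074) and Runx1 (-0.39, adjusted p = 0.18) were lost there. Of the 29648 genes tested, 313 were lower with library totals and 6265 with RLE factors, against 1309 in the main fit. All 6 members called in the main fit kept a negative sign under each of the 20 alternatives. For Cebpb and Cebpa the sign was negative with factors from all genes or RLE factors and positive with the others, which were 3 for Cebpb and 2 for Cebpa.

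Bhlhe40 kept its interaction call in all 10 fits without 1 library (-0.66 to -1.06). Klf6 lost it without control treated replicate 1, Sox2Hi naive replicate 1 or Sox2Hi treated replicate 1 (-0.64 to -0.87). Klf2 lost it without control naive replicate 3, control treated replicate 2, Sox2Hi naive replicate 1 or Sox2Hi treated replicate 2 (-0.67 to -0.96). Cebpe kept it only without control naive replicate 2, Sox2Hi naive replicate 3 or Sox2Hi treated replicate 2. Spi1 kept it only without control naive replicate 2 or control treated replicate 2, and without control treated replicate 1, the library at 175 CPM, it was -0.79 (adjusted p = 0.20). Runx1 kept it only without control naive replicate 2 or control treated replicate 1.

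The same distances, again independent of the scaling by construction, were computed for the interaction of the 6 members. Cebpe was -1.54 from the median of expressed genes, Spi1 -1.21, Klf2 -0.90, Klf6 -0.80, Bhlhe40 -0.76 and Runx1 -0.57. Only 0.55% of expressed genes were lower than Cebpe and 1.24% than Spi1. The shares were 3.64% for Klf2, 5.35% for Klf6, 6.37% for Bhlhe40 and 13.7% for Runx1.

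**Figure D3:**
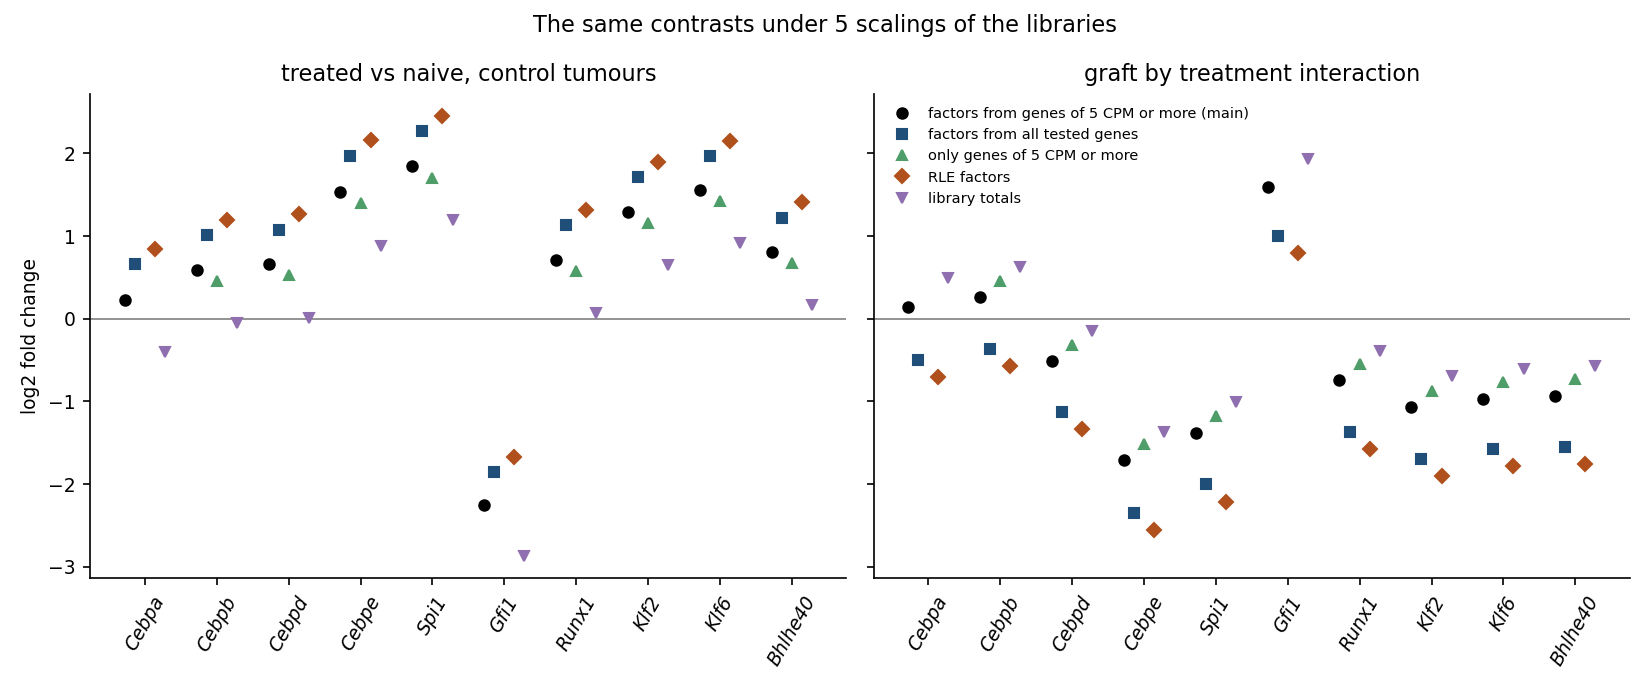
Log2 fold change of each member for treatment in control tumours (left) and for the interaction (right) under 5 scalings, 1 symbol each, with 4 for Cebpa and Gfi1, which are not expressed genes. All symbols of a member shift together, and Cebpe, Spi1, Klf2 and Klf6 stay above 0 on the left and below 0 on the right under each scaling.

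Between the grafts in naive tumours 1 member was higher in Sox2Hi, Bhlhe40, against 0.911% of all genes tested. That share itself rested on single libraries: 270 genes were higher, and 3 to 8 were without control naive replicate 1 or 2 or any Sox2Hi naive library. The number was 18 and 140 without Sox2Hi treated replicate 1 and 2, and 498, 398 and 415 without control naive replicate 3 and control treated replicates 1 and 2. DESeq2 called 2 members higher and limma-voom 4, against 529 and 1887 of the 29648 genes. By edgeR 4 members were higher at an unadjusted p below 0.05. No member was lower by edgeR, at an adjusted or an unadjusted p below 0.05, or by DESeq2, against 4.89% of genes by edgeR. With other scalings the 270 higher and 1449 lower genes became 494 and 64 (factors from all genes), 1186 and 103 (RLE factors) and 13 and 10 (library totals), so the direction in which most genes differed was not fixed. By limma-voom 1 member was lower, Cebpb, against 25.3% of genes by that tool. The 1449 genes behind edgeR's share were 0 to 3 without control naive replicate 1 or 2 or any Sox2Hi naive library, 9 and 589 without Sox2Hi treated replicate 1 and 2, and 5748 without control naive replicate 3. The median was 0.36 for the members, -0.37 over all genes and 0.04 over expressed genes. Bhlhe40 averaged 600 ± 55.2 CPM with the Sox2Hi graft and 404 ± 25.9 CPM with the control graft (SD, n = 3 each), with no overlap (0.57, SE 0.14, edgeR adjusted p = 0.0415). Its call was lost without any 1 of the 6 naive libraries (0.42 to 0.62, adjusted p from 0.054 to 0.11) and without either Sox2Hi treated library (0.57 and 0.56).

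Cebpe was next, at 16.1 ± 3.81 CPM against 7.31 ± 3.47 CPM (SD, n = 3 each), again with no overlap, and it did not pass (1.14, SE 0.34, edgeR adjusted p = 0.0604). Spi1 was at 61.9 ± 16.3 CPM against 36.8 ± 13.9 CPM (SD, n = 3 each), with groups that overlapped (0.75, SE 0.30, adjusted p = 0.115). Correlations within these same data are the only ground for pairing the naive libraries by the title numbers, since no label explains these numbers. With these as a replicate block in the naive libraries alone, an alternative added after the data were seen, 3 members were called, Cebpe (1.19, adjusted p = 0.017), Spi1 (0.77, adjusted p = 0.035) and Bhlhe40 (0.57, adjusted p = 0.016), against 4.09% of all genes and 9.42% of expressed genes called higher in that fit. In each of the 3 numbered pairs the Sox2Hi library had more Cebpe than the control one, and the same held for Cebpd, Spi1, Runx1, Klf2, Klf6 and Bhlhe40. For Cebpd the replicate 3 pair was nearly equal (14.6 against 14.5 CPM). Cebpa and Cebpb were lower in the Sox2Hi library of each pair, and Gfi1 was higher in 2 pairs. How many of all genes kept the same order in the 3 pairs was not counted, so this is a description only. In the block over all 10 libraries Cebpe (1.22, adjusted p = 0.044) and Bhlhe40 (0.57, adjusted p = 0.034) were called, against 1.66% of all genes.

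Among the Sox2Hi naive libraries Cebpa, Cebpb, Cebpd, Cebpe, Spi1, Gfi1 and Klf2 were highest in replicate 1 and lowest in replicate 3, and so was the summed level of the 20 mature neutrophil genes (30327, 25666 and 20091 CPM). Runx1 was lowest in replicate 1 and highest in replicate 3, and Klf6 and Bhlhe40 were lowest in replicate 2. In control naive libraries Cebpd, Cebpe, Spi1 and Bhlhe40 were lowest in replicate 1, Gfi1, Runx1 and Klf6 in replicate 2 and Cebpa, Cebpb and Klf2 in replicate 3, whereas the mature neutrophil sum was lowest in replicate 3 (27188, 31199 and 19688 CPM). The part of the mature neutrophil level in these differences was not tested.

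Between the grafts in treated tumours 2 members were lower in Sox2Hi, against 3.29% of all genes tested. That share is 976 genes, and it was 4 without Sox2Hi treated replicate 1, 41 without control treated replicate 2, and 227 and 320 without the other treated library of each graft. Without control naive replicate 1 or any Sox2Hi naive library it was 426 to 568. The 2874 genes that were higher were 77 and 962 without Sox2Hi treated replicate 1 and 2, 1272 and 47 without control treated replicate 1 and 2, and 5310 without control naive replicate 3. The balance of the 2874 higher and 976 lower genes turned with the scaling, to 1226 and 2853 with factors from all genes and 835 and 4123 with RLE factors, and was 10630 and 308 with library totals. None was higher by edgeR, DESeq2 or limma-voom, against 9.69% of genes by edgeR, and 1, Gfi1, was at an unadjusted p below 0.05. With library totals Gfi1 was the 1 member called, higher in Sox2Hi (2.13), and Klf6 (-0.26) and Runx1 (-0.22) were not. The members' median was -0.46, against 0.47 over all genes and -0.07 over expressed genes. Klf6 was at 1578 ± 140 CPM in Sox2Hi treated and 2509 ± 345 CPM in control treated libraries (SD, n = 2 each; -0.67, SE 0.19, edgeR adjusted p = 0.0439). Runx1 was at 113 ± 11.8 CPM against 173 ± 18.2 CPM (SD, n = 2 each; -0.62, SE 0.16, adjusted p = 0.0352). Each was called in 1 of the 10 fits without 1 library, the one without control naive replicate 2, and lost in the other 9 (Klf6 -0.50 to -0.81, Runx1 -0.50 to -0.70). Klf2 (-0.64, SE 0.22, edgeR adjusted p = 0.0684), Spi1 (-0.63, SE 0.36, adjusted p = 0.221) and Cebpe (-0.57, SE 0.40, adjusted p = 0.318) did not pass. Nor did Bhlhe40 (-0.36, SE 0.17, adjusted p = 0.153) or Gfi1 (1.75, SE 0.59, adjusted p = 0.0631). The groups of all these genes did not overlap. With 2 libraries in each group this adds little to the tests, and its share over all genes was not counted. Cebpb was at 116 ± 4.34 against 123 ± 18.7 CPM (SD, n = 2 each; -0.09, SE 0.24, adjusted p = 0.807).

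The lists below are read against the shares of genes called in the same contrast. In control tumours 12.5% of all genes tested and 28.0% of expressed genes rose, and 36.1% of all genes fell. In Sox2Hi tumours 3.36% rose, and the interaction was higher for 26.8% and lower for 4.42%. Between grafts 0.911% were higher and 4.89% lower in Sox2Hi among naive tumours, and 9.69% and 3.29% among treated ones. These shares moved with the scaling and with single libraries as given above. A count near them is no result about a list. The naming rule works within each contrast, so a gene named for 1 graft may have changed in the other too.

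Relatives of the members moved in both directions. Of 24 (other C/EBP, ETS, RUNX, KLF and related genes), 12 rose and 4 fell on treatment of control tumours, with a median of 0.48. The C/EBP Ddit3 (CHOP), a stress-induced partner of the other C/EBPs, rose by 2.16 on the log2 scale (SE 0.18, edgeR adjusted p = 2.3e-05), from 65.5 ± 8.53 to 292 ± 5.0 CPM. Klf3 rose by 1.26 (SE 0.21), while Klf5 was lower at -1.13 (SE 0.31) and Klf9 at -1.02 (SE 0.26). In Sox2Hi tumours 2 relatives rose, Spic (2.15, SE 0.40) and Ddit3 (0.96, SE 0.18). None fell by edgeR or the other tools, and 1 did at an unadjusted p below 0.05. The interaction was lower for 5 and higher for 1, with Ddit3 at -1.20 (SE 0.25) and Klf10 at -0.93 (SE 0.21). In naive tumours edgeR called 1 relative, Klf10, higher in Sox2Hi (0.54, SE 0.13), whereas DESeq2 called 2 higher and limma-voom 4 higher and 1 lower. In treated tumours 3 were higher in Sox2Hi, among them Klf9 (1.06, SE 0.28) and Klf16 (0.65, SE 0.20), and 1 lower, Ddit3 (-1.18, SE 0.20), both counts near the shares of 9.69% and 3.29%.

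Of 28 other regulators of the lineage, 10 rose and 4 fell in control tumours (median -0.04), and 1 rose in Sox2Hi tumours. The 10 of 28 lay not far from the 28.0% of expressed genes that rose, and the 1 of 28 near the 3.36% of all genes. Those named by the rule in control tumours were Nfe2 (1.78, SE 0.28) and Zeb2 (1.69, SE 0.24), and in Sox2Hi tumours Nfil3 (0.89, SE 0.17, edgeR adjusted p = 0.016). The mean of Nfil3 was higher on treatment in both grafts, at 41.2 and 97.3 CPM in control and 48.6 and 89.8 CPM in Sox2Hi tumours. Nfe2 had an interaction of -1.26 (SE 0.41), and Zeb2 was lower in Sox2Hi among treated tumours (-0.89, SE 0.26). Of 10 cytokine receptors upstream of these factors, 6 rose and 2 fell in control tumours (median 0.80). Csf3r, the receptor of G-CSF, rose by 1.52 (SE 0.27), Csf2ra, a chain of the GM-CSF receptor, by 1.28 (SE 0.27), and Il6st, the shared chain of IL-6 receptors, fell by 0.77 on the log2 scale (SE 0.18). In Sox2Hi tumours 1 rose, and the interaction was higher for 3, Il6st among them (0.80, SE 0.25), and for none by DESeq2. The 3 of 10 were near the 26.8% of all genes.

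The granule genes that C/EBP proteins are known to drive were counted next. Of 13 late granule genes, a list that holds Cebpe, 12 rose in control tumours (median 1.85) and 6 in Sox2Hi tumours (median 1.19). None fell in either by edgeR, DESeq2 or limma-voom, or at an unadjusted p below 0.05. Ngp rose in control tumours by 4.92 (SE 1.0, edgeR adjusted p = 0.0031) and Camp, the cathelicidin, by 3.96 (SE 0.83). In Sox2Hi tumours Camp rose by 3.58 (SE 0.83), from 1.42, 5.49 and 0.687 CPM in naive to 10.6 and 49.4 CPM in treated libraries. It rose by 2.08 without Sox2Hi treated replicate 2. The Camp call was lost there and without Sox2Hi naive replicate 1 or 3. Chil3 rose by 3.17 (SE 0.44), from 18.3, 18.7 and 11.7 CPM to 65.9 and 228 CPM. Treated replicate 2 was several times higher than replicate 1 for both genes, and the Chil3 call held in all 10 fits without 1 library (2.01 to 3.81). In control tumours Chil3 averaged 25.3 CPM when naive and 306 CPM when treated. Of the 13 late granule genes the interaction was lower for 2, Cebpe and Cd177 (-1.90, SE 0.44), and in naive tumours Cd177 was higher in Sox2Hi (1.44, SE 0.28). Mmp8 was the 1 gene lower in Sox2Hi among treated tumours (-1.51, SE 0.43).

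Of 7 genes listed as primary granule genes, 6 had enough reads, and 3 rose in control and 1 in Sox2Hi tumours. The list holds haptoglobin (Hp), whose protein is known from the later, specific granules. Hp rose in both, by 2.17 (SE 0.26, edgeR adjusted p = 0.00019) and 1.18 (SE 0.26, adjusted p = 0.027), and was the 1 called in Sox2Hi tumours. The others called in control tumours, named after their values were seen, were Prtn3 (1.65) and Cst7 (1.37). Of 20 genes of mature neutrophils, 19 rose in control tumours (median 1.52) and 7 in Sox2Hi tumours (median 0.64). None fell in either by any of the 3 tools, or at an unadjusted p below 0.05. Retnlg rose by 3.40 (SE 0.37) in control and 1.90 (SE 0.36) in Sox2Hi tumours, S100a9 by 2.74 (SE 0.27) in control, and Ly6g by 1.68 (SE 0.35) in Sox2Hi tumours. Both S100a9 and Ly6g also had higher means on treatment in the other graft. S100a9 averaged 911 and 2660 CPM in naive and treated Sox2Hi tumours, and Ly6g 2.30 and 14.9 CPM in naive and treated control tumours. Among treated tumours 8 of 20 were lower in Sox2Hi, against 3.29% of all genes, with Fpr1 at -1.56 (SE 0.28) and Retnlg at -1.47 (SE 0.41). The interaction was lower for 6 by edgeR, with Fpr1 at -1.56 (SE 0.35) and Retnlg at -1.50 (SE 0.52). DESeq2 called 12 lower and limma-voom 9, and 14 were lower by edgeR at an unadjusted p below 0.05. The median interaction of the 20 was -0.96, more negative than the -0.83 of the members. In naive tumours none of the 20 passed by edgeR or DESeq2, while 3 were higher in Sox2Hi by limma-voom and 1 at an unadjusted p below 0.05. The lists were written with earlier results of these data known.

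The calls of the list genes named by the rule were recomputed without each library. In control tumours those of Klf5 and Il6st were lost without control treated replicate 2 and that of Klf9 without control treated replicate 1, and the others so named held in all 10 fits. In Sox2Hi tumours the calls of Ddit3 and Nfil3 were lost without either treated library, and that of Hp without either of these or Sox2Hi naive replicate 2 or 3. That of Retnlg was lost without Sox2Hi treated replicate 2, that of Ly6g without replicate 1, and that of Spic without treated replicate 2 or Sox2Hi naive replicate 3. Between grafts the calls of Klf10 (naive) and Zeb2 (treated) held in 2 of 10 fits, Cd177 (naive) in 4, Mmp8 in 5, Klf16 and Retnlg in 6 and Klf9, Ddit3 and Fpr1 in 7. For the interaction those of Ddit3, Klf10 and Fpr1 held in all 10, Cd177 in 9, Il6st in 8, and Nfe2 and Retnlg in 3.

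**Figure D4:**
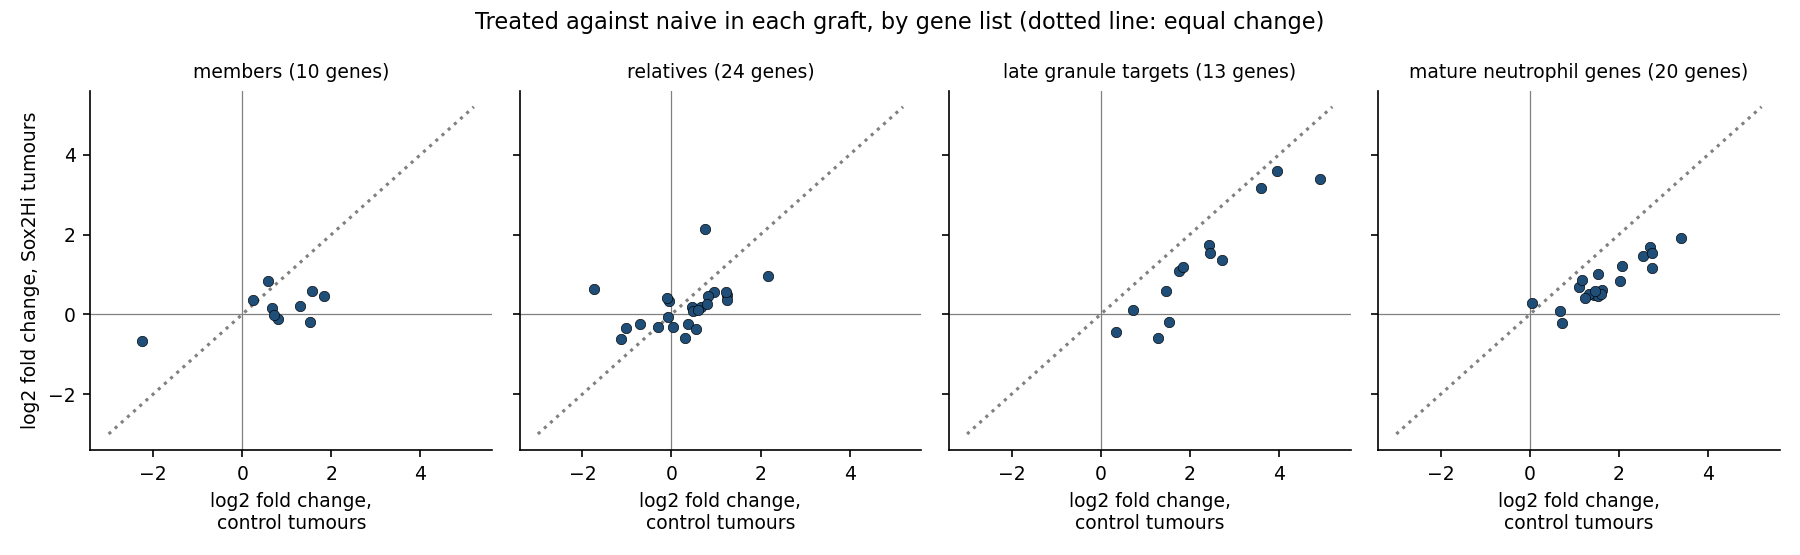
Log2 fold change on treatment in control tumours (horizontal axis) and Sox2Hi tumours (vertical axis) for the 10 members, 24 relatives, 13 late granule genes and 20 mature neutrophil genes, 1 point a gene, with a dotted line of equal change. Late granule and mature neutrophil genes extend farther to the right than the members, and most points lie below the dotted line.

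For each member the 2 expressed genes with the most similar pattern were found among 9916 candidates. The measure was the mean absolute difference in log2(CPM + 1) over the 10 libraries, after each gene's own mean was subtracted. For Spi1 they were Csf3r (0.12) and Selplg (0.13), for Runx1 Vdac2 (0.035) and Vta1 (0.044), and for Cebpe Plekhf2 (0.18) and Chmp4b (0.19). For Cebpb they were Xylt1 (0.079) and Selp (0.10), and for Cebpd Sys1 (0.12) and Srrm2 (0.12). For Klf6 they were Casp8 (0.086) and Kpna4 (0.093), for Klf2 Klhl24 (0.11) and Csf1 (0.11), and for Bhlhe40 Msn (0.056) and Mpzl3 (0.074). For the 2 low members they were Parp4 (0.058) and Slmapos2 (0.070) for Cebpa, and Klf16 (0.091) and Prkaca (0.12) for Gfi1. Both genes of a pair are read from the same 10 libraries, each with its own depth and cell content, and the likeness describes the pattern only.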

How the data were processed

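The authors deposited 1 table of estimated counts per gene for 10 libraries. Per the submitters' processing notes, kallisto 0.44.0 and mm10 were used, with no role given. The annotation and strand setting are not given in the sources used here. Values are whole numbers, and the 4 with over 6 digits end in 0. Per the labels' protocols, RNA was prepared with a low-input library kit. Of 55481 entries, 96 are not mouse genes and were left out (at most 0.00277% of a library). Symbols and coordinates are from GENCODE M21 (GRCm38).

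The 4 groups formed 1 model over the 10 libraries, fitted with the quasi-likelihood test of edgeR 4.0.16 under R 4.3.3 after filterByExpr, with TMM factors from genes of at least 5 CPM and Benjamini-Hochberg adjustment over 29648 genes at 0.05. Standard errors are the log2 fold change over the square root of F. CPM are scaled by the factors. Alternatives used limma 3.58.1 (voom), DESeq2 1.42.0, other scalings and filters, background subtraction, replicate blocks and each library left out. Scripts were tested on simulated counts. Precision rests on the depth of 13815734 to 22986193 counts a library and a common biological coefficient of variation of 0.235.

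The members and lists were chosen with earlier results of these data known. All 10 members were named whatever their result, and from each list at most the 2 highest and 2 lowest changes among expressed genes past the threshold. Deviations from group means were correlated between libraries with the same title number. The 3 naive pairs gave 0.273, 0.324 and 0.474. This is the only ground for pairing the naive libraries by number, since no label explains the numbers. The other pairs ran from -0.28 to 0.247. Replicates differed beyond counting noise (smallest chi-square per degree of freedom 12.5).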

Additional observations from a re-analysis of the deposited data

Results flagged for a closer look

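The treatment response of 6 members differed between the grafts by the interaction term. The log2 differences, Sox2Hi minus control, were -1.71 for Cebpe, -1.38 for Spi1, -0.74 for Runx1, -1.07 for Klf2, -0.97 for Klf6 and -0.93 for Bhlhe40. Each is set beside its level in every library and its alternatives in the report.

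The table also holds a tdTomato sequence, the reporter by which the neutrophils were isolated, which the comparisons did not use. It had reads in all 10 libraries, from 135 in control naive replicate 2 to 514 in control treated replicate 2. Scaled like the genes, it was at 14.6, 8.80 and 11.9 CPM in naive and 23.8 and 30.9 CPM in treated control libraries. Naive Sox2Hi libraries had 15.4, 12.2 and 9.44 CPM and treated ones 26.8 and 14.9 CPM. Ly6g, to whose locus it is tied, had means of 2.30 and 14.9 CPM in naive and treated control tumours and 2.37 and 7.62 CPM in naive and treated Sox2Hi tumours.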

How the results depend on the processing

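Of 1035 recomputed fold changes of members, 818 kept their direction and side of the threshold, 130 lost the threshold, 36 gained it and 50 changed sign with no call in either fit. In 1 more a called value changed sign, Cebpb on treatment of control tumours with library totals (-0.0494, edgeR adjusted p = 0.84). Shares of all genes called stand in brackets. On treatment of control tumours 9 members were called (48.6%), 5 with library totals (72.9%), and 7 to 8 without 1 library. On treatment of Sox2Hi tumours it was 1 (5.02%), against 0 with factors from all genes (3.61%), RLE factors (3.41%) or library totals (6.04%), 2 with expressed genes alone (21.6%), limma-voom (11.9%) or DESeq2 (9.8%), and 0 to 2 without 1 library. Between naive grafts it was 1 (5.8%), against 5 with RLE factors (4.35%) or limma-voom (31.7%), 0 with library totals (0.0776%), the 2 groups alone (2.8%) or background subtracted (0.00466%), 2 with DESeq2 (7.01%), and 0 to 1 without 1 library. The replicate block gave 2 there by title number (8.37%), 0 by description number (2.68%) and 3 in the naive libraries alone (18.5%), an alternative added after the data were seen, and moved no other count by over 1.5 times. Between treated grafts it was 2 (13.0%), Klf6 and Runx1, against 4 with factors from all genes (13.8%), 5 with RLE factors (16.7%), 1, Runx1, with expressed genes alone (20.9%) or limma-voom (7.46%), 1 with library totals (36.9%), Gfi1 in the other direction, 0 with no filter (5.47%), the 2 groups alone (0.00675%) or background subtracted (2.72%), and 0 to 3 without 1 library. For the interaction it was 6 (31.2%), against 1 with expressed genes alone (19.8%), 0 with background subtracted (7.77%), and 1 to 6 without 1 library. The cause of these differences was not tested. Leaving out a treated library leaves its group with 1, assumed to vary like the others. Leaving out a library, or fitting expressed genes alone, can also change the reference library of the factors, so that contrasts without it move too. Gfi1 and Cebpa were not tested with expressed genes alone, nor Gfi1 with background subtracted. Depth limits Gfi1 (2 to 26 reads) and Cebpa (53 to 80).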
